A study of Mus musculus with 18 samples.

Results

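Mouse bone marrow derived macrophages that had received the synthetic glucocorticoid dexamethasone for 10 h were compared with the same kind of cells at baseline. The comparison rests on 6 of the 18 arrays of the series, the 3 titled as 10 h of dexamethasone at 100 nM and the 3 titled as baseline, and it covered 13190 genes. All groups share their source, marrow of 3 male C57BL/6 animals 10 weeks old, grown for 1 week in 10% serum and CSF1 (10000 U/ml, recombinant human protein) and then replated with serum and CSF1. CSF1, also called M-CSF, is the growth factor that turns marrow precursors into macrophages. Baseline cells are described by that word alone, and a vehicle is not mentioned in the labels. The replicate numbers are not tied to animals, and the labels do not say whether an array held RNA of 1 animal or of a pool. The remaining groups, 1, 2, 4 and 24 h of dexamethasone with 3 arrays each, are used here to set the spread and to show where 10 h differed from 4 h and from 24 h.

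Dexamethasone enters cells and binds the glucocorticoid receptor, which is held in the cytoplasm by heat shock proteins and immunophilins. The bound receptor moves to the nucleus, where it raises the transcription of some genes directly at DNA elements and lowers that of others, many of them driven by AP-1, NF-kappaB or interferon regulatory factors. In macrophages glucocorticoids are known for dampening inflammatory cytokines and for raising receptors that clear dying cells and haemoglobin. By 10 h the products of the first induced genes have had time to act, so direct and later changes are mixed in a comparison of this kind.

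Of the 13190 genes tested, 1905 (14.4%) passed an adjusted p of 0.05, 1093 (8.29%) higher at 10 h and 812 (6.16%) lower. An adjusted p is limma's two-sided p after Benjamini-Hochberg adjustment over all tested genes, levels and changes are on the log2 scale of the deposited intensity, and ± after a change gives limma's standard error (n = 3 arrays in each group). Rises were larger than falls. The median size was 0.46 among the higher genes and 0.34 among the lower, and changes of at least 1 log2 unit numbered 104 upward and 22 downward. The 3 arrays at 10 h lay wholly above the 3 baseline arrays for 1025 of the higher genes (93.8%), against 14% of all tested genes. They lay wholly below for 767 of the lower genes (94.5%), against 11.6% of all tested genes. The calls come from the same arrays, so these shares are no independent support. Centring each array on the median level of its tested genes moved the median change of all genes from 0.01 to -0.11, and the split then became 576 higher and 2050 lower (21.9% higher, against 57.4%), with 0 genes passing in opposite directions. A centring added later, on each array's median difference from the mean array, gave 1048 higher and 880 lower. Directions of gene groups are given below with the counts under the first scaling wherever the larger side turned or a tie was broken. Below, centred arrays are those of the first scaling. Counts of gene groups are to be read against the shares of 8.29% higher and 6.16% lower over all tested genes. The groups were chosen with earlier results of these data known, so an excess over these shares is no independent support.

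**Figure D1:**
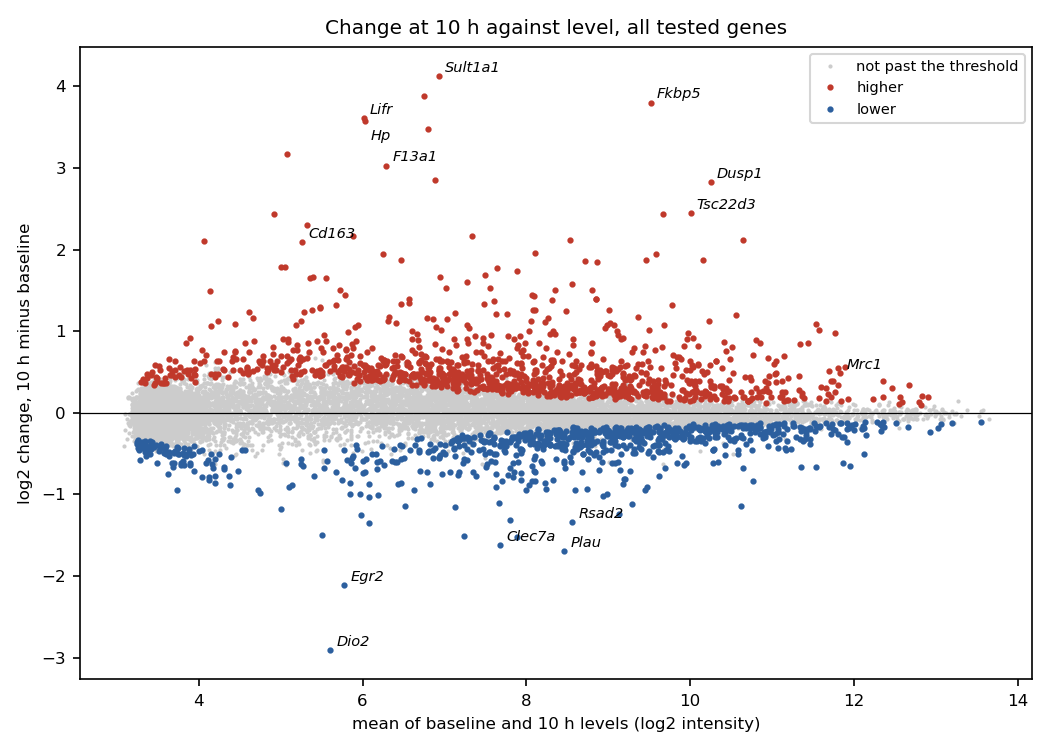
Log2 change at 10 h against baseline (vertical axis) plotted against the mean of both levels in log2 intensity (horizontal axis), 1 point per tested gene; red points were higher and blue points lower at an adjusted p of 0.05. The largest rises reached 4.13 and the largest falls -2.91, and large rises occurred at low and high levels alike, with Fkbp5 and Dusp1 among the brighter genes.

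Labelled identity was checked with marker genes. The 9 macrophage markers named on the array lay above the background level of 3.86 (the level that 95% of control probe sets stay under) in both groups, with summed intensities of 23460 to 24094 at baseline and 23344 to 24701 at 10 h. Of these, Mertk and Itgam were higher at 10 h. All 5 NK cell and all 5 dendritic cell markers lay below background in both groups. Above it at baseline were 2 of 6 T cell markers (Cd3e and Cd28), 1 of 5 for B cells (Cd79b), 1 of 7 for fibroblasts (Pdgfrb), 2 of 4 for erythroid cells (Klf1 and Epor), 2 of 5 for endothelium (Kdr and Vwf) and 1 of 5 for mast cells and basophils (Kit). The same markers were above it at 10 h except Pdgfrb. The dendritic cell marker Flt3 passed as higher with both of its means below background, a call lost in 7 of 19 alternatives. Of 11 neutrophil markers 8 lay above background at baseline and 7 at 10 h. Neutrophil markers summed to 399 to 555 at baseline and 466 to 538 at 10 h, with Ltf and Camp lower. T cell markers summed to 978 to 1239 at baseline and 635 to 690 at 10 h, of which Cd28 was lower. For the Gapdh control probe sets the excess of the 3' over the 5' signal, which grows as RNA degrades, was 0.08, 0.02 and 0.06 on the baseline arrays and averaged 0.20 ± 0.09 (SD, n = 3) at 10 h. That of Actb averaged 0.42 ± 0.02 at 10 h and 0.38 ± 0.02 at baseline. Each gave an exact two-sided permutation p of 0.1 (adjusted 0.1), the smallest that 3 against 3 arrays allow. RNA integrity, and a change in cell numbers, which cannot be told apart from a change in RNA per cell in bulk samples, were not tested as sources of any change below.

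The largest rises joined genes of quite different function. Sult1a1 encodes a sulfotransferase that conjugates phenols and steroids; it read 4.58, 5.03 and 5.01 on the baseline arrays and 8.71, 8.94 and 9.36 at 10 h, a 17.5-fold difference (adjusted p 3.07e-16). Ddit4, also named REDD1, which restrains the kinase complex mTORC1, read 5.32, 4.28 and 4.81 against 8.72, 8.43 and 8.90. Lifr, the receptor chain for leukaemia inhibitory factor, went from 4.05, 4.41 and 4.18 to 7.59, 7.82 and 8.05. In each of these the lowest array at 10 h lay more than 2 log2 units above the highest at baseline. Other probe sets of Lifr rose less, by 1.14 and 2.49. Hp, which encodes haptoglobin, the plasma protein that binds free haemoglobin, read 4.35, 4.06 and 4.30 at baseline and 7.41, 7.92 and 8.10 at 10 h. Prss16, a thymus-specific serine protease gene, rose by 3.48 ± 0.16, and Rab15, a small GTPase of endosomal recycling, by 2.85 ± 0.17. F13a1, the A subunit of the clot-stabilising factor XIII, read 4.78, 4.91 and 4.64 against 7.91, 7.59 and 7.91. Ms4a4b and the stress kinase gene Map3k6 rose by 3.17 ± 0.16 and 2.44 ± 0.15 from baseline means below background, which leaves the true size of those rises uncertain.

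With the arrays as deposited, falls were fewer and smaller, and the largest was in thyroid hormone activation. With centred arrays falls were the more numerous, 2050 against 576 rises. Dio2, the deiodinase that makes active thyroid hormone inside cells, read 7.38, 6.85 and 6.96 at baseline and 4.28, 4.16 and 4.01 at 10 h, a 7.53-fold difference (adjusted p 1.12e-11). Another probe set of Dio2 above background changed less, by -0.77. Egr2, an immediate-early zinc finger factor, fell from 7.16, 6.69 and 6.64 to 4.84, 4.89 and 4.42. Plau, the urokinase that activates plasminogen, fell from 9.50, 9.16 and 9.27 to 7.59, 7.71 and 7.58. No array at 10 h reached the baseline range in these genes. Clec7a, the beta-glucan receptor Dectin-1, fell by 1.62 ± 0.10, Acod1, whose enzyme makes itaconate, fell by 1.52 ± 0.11, and Il1rn, the secreted antagonist of the interleukin 1 receptor, fell by 1.51 ± 0.17. Other probe sets of Il1rn were at -1.34 and -0.59. Kit, the receptor of stem cell factor, had baseline arrays of 6.26, 6.26 and 6.27 and 10 h arrays of 4.80, 4.63 and 4.84. The actin-binding gene Enc1 fell by 1.31 ± 0.12 and the signalling adaptor gene Stap1 fell by 1.24 ± 0.10.

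**Figure D2:**
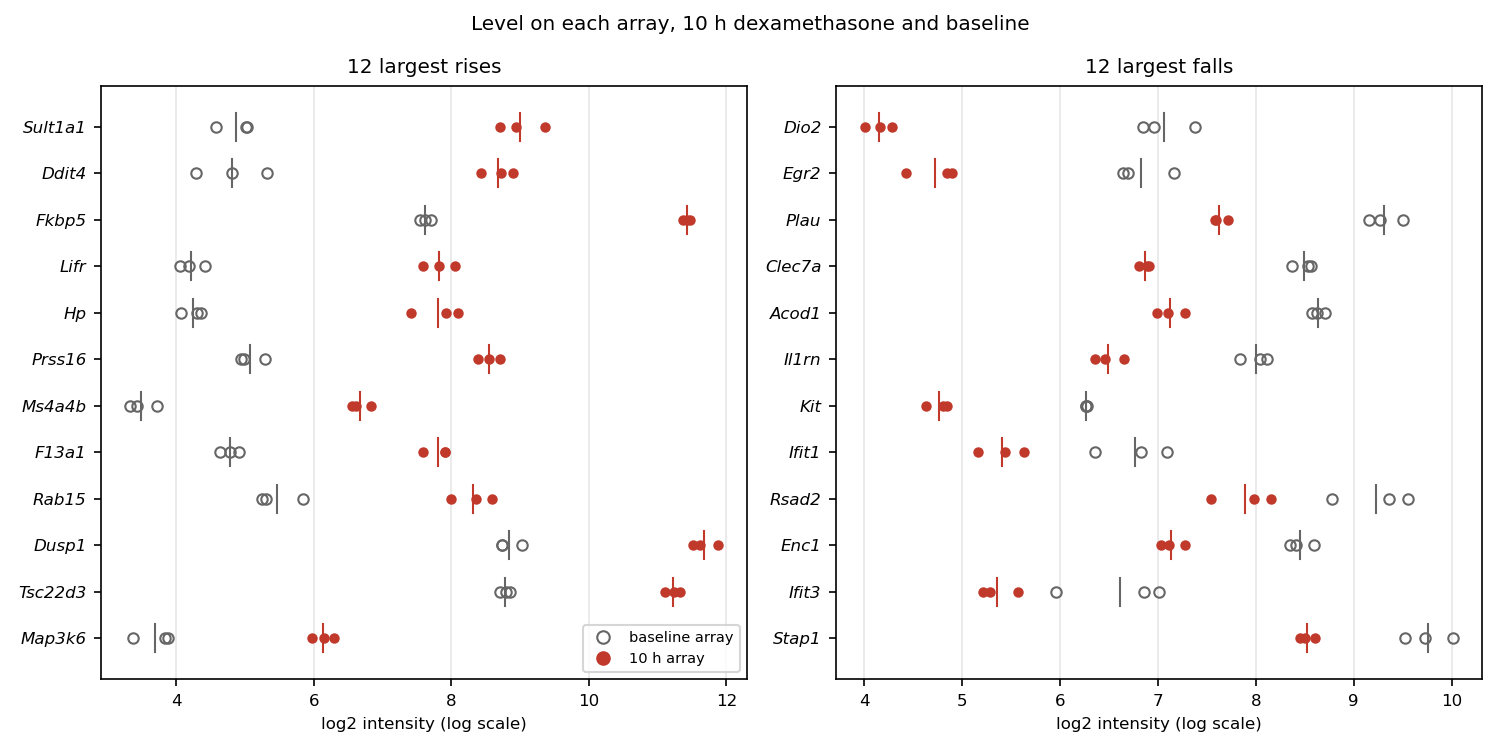
Level on each array, in log2 intensity, of the 12 genes with the largest rises (left) and the 12 with the largest falls (right); open circles are the 3 baseline arrays, filled circles the 3 arrays at 10 h, and vertical ticks the group means. The groups do not overlap in any of the 24 genes, which were chosen for that, and the distance is widest for Sult1a1 at 4.13 and Dio2 at -2.91.

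The receptor's own gene did not pass. Nr3c1 read 8.49, 8.54 and 8.37 at baseline and 8.51, 8.16 and 8.41 at 10 h (-0.11 ± 0.08, adjusted p 0.466), and the ranges overlapped. Among 15 tested genes of the receptor complex and its cofactors 3 were higher and 3 lower, with a median of -0.04 against 0.01 over all tested genes (2 higher and 6 lower with centred arrays). Fkbp5, an immunophilin that lowers hormone binding of the receptor, rose by 3.80 ± 0.07, from 7.61, 7.70 and 7.54 to 11.42, 11.37 and 11.47. The chaperone genes Hsp90aa1 and Hspa4 were lower by smaller amounts, at -0.32 ± 0.04 and -0.16 ± 0.05, Hspa4 with a call lost in 6 of 19 alternatives. Of the coactivators, Ncoa2 stood at 0.60 ± 0.07 and Ncoa3 at -0.26 ± 0.07. The call of Ncoa3 was lost in 3 of 19 alternatives, without baseline replicate 3 among them. Hsd11b1, whose enzyme regenerates active corticosteroid from its inert keto form, was at 0.50 ± 0.15 (adjusted p 0.0307), a call lost when only the 6 arrays compared were fitted, with centred arrays, and without baseline replicate 2 or 3 or 10 h replicate 1 or 2.

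Textbook targets of the receptor were the list with the second largest share of calls, 13 of 25 tested higher and 3 lower, with a median of 0.30. The list was drawn up from genes known to respond to glucocorticoids, so its direction is no independent observation. Dusp1, the phosphatase that inactivates p38 and JNK, read 8.73, 8.74 and 9.03 against 11.52, 11.87 and 11.61. Tsc22d3, or GILZ, a leucine zipper protein that binds AP-1 and NF-kappaB, read 8.79, 8.85 and 8.70 against 11.33, 11.24 and 11.11. Other probe sets of Tsc22d3 were at 0.59 and 2.45. Klf9, a Kruppel-like repressor, rose by 2.43 ± 0.07, and Zbtb16, a zinc finger repressor also known as PLZF, by 2.30 ± 0.26, with 10 h arrays spread from 5.75 to 7.03. Sgk1, a kinase related to AKT, was higher by 0.68 ± 0.05. The 3 lower members followed another course. Rgs2, which speeds the turn-off of Gq signalling, fell from 11.26, 11.02 and 11.29 to 9.99, 10.13 and 10.03. Cdkn1c, the cyclin-dependent kinase inhibitor p57, fell by 1.02 ± 0.21, and Tgm2, tissue transglutaminase, fell by 0.84 ± 0.10. Anxa1, which encodes the anti-inflammatory annexin A1, read between 12.61 and 12.72 on all 6 arrays and did not pass (adjusted p 0.389).

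Promoter windows show what stands just before the start of such genes. RefSeq start sites of GRCm38.p6 were found for 10621 of the tested genes, and the 250 bases before each start were searched on both strands for the palindromic receptor element, GNACA and TGTNC with 3 bases between them. It occurred in 0.44% of all genes in the table, in 0.358% of the tested genes, in 5 of 897 higher genes (0.557%) and in 1 of 653 lower genes (0.153%). Among 20 receptor targets with a window, Mt1 and Sgk1 held it. The windows of Sgk1 and of Map3k6, a gene among the 12 largest rises, are printed as examples of windows with the element; capitals mark the match, and a match is a description of the letters, not a site. The Sgk1 window is chr10:21993640-21993889 on the plus strand and that of Map3k6 chr4:133240568-133240817, also plus.
Sgk1: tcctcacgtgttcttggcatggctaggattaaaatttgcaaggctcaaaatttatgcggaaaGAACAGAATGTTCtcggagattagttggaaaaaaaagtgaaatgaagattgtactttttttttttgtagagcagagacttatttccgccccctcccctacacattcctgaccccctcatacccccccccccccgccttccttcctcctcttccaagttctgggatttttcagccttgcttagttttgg
Map3k6: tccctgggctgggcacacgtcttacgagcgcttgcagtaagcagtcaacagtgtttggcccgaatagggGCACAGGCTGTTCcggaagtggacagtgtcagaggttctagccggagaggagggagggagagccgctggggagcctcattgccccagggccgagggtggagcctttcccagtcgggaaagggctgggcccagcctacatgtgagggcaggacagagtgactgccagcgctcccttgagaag
Most target genes of this list, Fkbp5, Dusp1 and Tsc22d3 among them, had no match in a window of this length, which says nothing of elements farther away.

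Kruppel-like, C/EBP and zinc finger factors, which bind GC-rich or CCAAT-type elements, were higher in 8 of 16 tested and lower in 0, with a median of 0.28 (7 higher and 2 lower with arrays centred on their median). Klf13 went from 8.69, 8.84 and 8.54 to 9.64, 9.52 and 9.66. Klf4, a factor of monocyte differentiation, stood 1.00 ± 0.09 above baseline, yet it was 0.91 lower than at 4 h (adjusted p 5.97e-07), so its level at 10 h lay between baseline and the earlier maximum. Cebpa rose by 0.48 ± 0.12, a call lost without baseline replicate 3 or 10 h replicate 2, and Klf6 by 0.45 ± 0.06. Of 21 immediate-early factors, which answer growth signals within minutes, 3 were higher and 2 lower (1 and 5 with centred arrays). Fos, a subunit of AP-1, was at 1.04 ± 0.10 and Egr2 at -2.11 ± 0.19, a difference in sign within the same class. Atf3, a repressor of Toll-like receptor responses, fell by 0.45 ± 0.11. Among 19 factors of macrophage lineage 5 were higher and 3 lower (3 and 4 with centred arrays), led by Id1, an inhibitor of basic helix-loop-helix factors, at 1.51 ± 0.16 and Maf, a factor of resident macrophages, at 0.75 ± 0.07. Pparg, the nuclear receptor of lipid-handling macrophages, was 0.84 ± 0.09 lower.

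Inflammatory signalling showed a mixed pattern, with inhibitors among the higher genes. Of 16 MAP kinase phosphatases and Sprouty-type brakes 3 were higher and 2 lower (2 and 5 with centred arrays): Dusp1 and Dusp6 rose, Dusp22 was at 0.33 ± 0.10, and Dusp4 read 8.56, 8.39 and 8.47 at baseline against 7.53, 7.53 and 7.51. Of 17 NF-kappaB genes 4 were higher and 0 lower. None of the 4 tested subunits passed, while 3 of 8 genes listed as inhibitors did, with the cofactor gene Nfkbiz counted among them. Nfkbia, which encodes the inhibitor that holds NF-kappaB in the cytoplasm, rose by 0.81 ± 0.06 without overlap. Tnfaip3, the ubiquitin-editing enzyme A20, stood at 0.49 ± 0.11, a call lost when another probe set or the mean of all its probe sets was used. Nfkbiz, a nuclear cofactor of NF-kappaB, was at 0.59 ± 0.16 (adjusted p 0.0112), and the call was lost without 10 h replicate 2 or 3 and with the mean of its probe sets, which ranged down to -0.08. Tbk1, the kinase that activates interferon regulatory factors, rose by 0.36 ± 0.05. Among 21 JAK, STAT and SOCS genes 3 were higher and 1 lower (0 and 4 with centred arrays), all by less than 0.5: Jak2 at 0.33 ± 0.09, Stat3 at 0.26 ± 0.08, Cish at 0.47 ± 0.16 and the phosphatase gene Ptpn6 at -0.22 ± 0.05. The calls of Cish, Stat3 and Jak2 were lost in 10, 7 and 3 of 19 alternatives, each without baseline replicate 1 among them, and that of Dusp22 in 5.

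Of 9 tested Toll-like receptors 4 were higher and 0 lower, and of 4 coreceptors 1 was lower. Tlr8, a sensor of RNA, read 5.32, 5.33 and 5.20 against 7.32, 7.16 and 7.21, and Tlr7, a second RNA sensor, 9.04, 9.20 and 9.11 against 10.26, 10.44 and 10.60. Neither gene's groups overlapped. Tlr6 was at 0.51 ± 0.12 and its partner in lipoprotein sensing, Tlr2, at 0.42 ± 0.08. Tlr2 is the receptor gene whose direction had turned: it was 0.46 ± 0.08 below baseline at 4 h, and the step from 4 h to 10 h was 0.88 (adjusted p 8.38e-08). Tlr4, the endotoxin receptor, and its coreceptor Cd14 did not pass, at 0.04 and 0.01. Cd180, which tempers endotoxin signalling, fell by 0.71 ± 0.10. Unc93b1, which carries Tlr7 and Tlr8 to endosomes, was at -0.26 ± 0.09 (adjusted p 0.0453), a call lost in 10 of 19 alternatives.

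Of 18 tested cytokine genes and their antagonists 2 were higher and 2 lower (1 and 4 with centred arrays). The lower members were Il1rn, whose fall is given above, and Tnf. Tnf read 7.68, 7.74 and 7.94 at baseline and 7.16, 7.44 and 7.31 at 10 h, lower without overlap (-0.48 ± 0.10), and it was 0.97 above its level at 4 h (adjusted p 8.23e-07). Il18, an inducer of interferon gamma, was at 0.59 ± 0.13, and Tnfsf13b, the B cell factor BAFF, at 0.46 ± 0.14, a call lost in 6 of 19 alternatives, among them without baseline replicate 3 or 10 h replicate 1 or 3. Il1b and Il10 lay below background in both groups. Chemokines, 22 tested, gave 2 higher and 2 lower (1 and 6 with centred arrays): Ccl2, which attracts monocytes, read 11.25, 11.36 and 11.26 against 10.72, 11.11 and 10.75, and Cxcl16, which attracts T cells, fell by 0.57 ± 0.06. Ccl9 was 0.21 ± 0.04 higher, a call lost with centred arrays. Cxcl2, a neutrophil attractant, stood at 0.80 ± 0.22, with arrays from 7.47 to 8.10 and from 8.10 to 9.08, and the call was lost without baseline replicate 1 or 10 h replicate 2 or 3.

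Of 27 cytokine receptors 8 were higher and 1 lower (6 and 4 with centred arrays), with Lifr first. Il15ra, the chain that presents interleukin 15, read 4.05, 5.04 and 4.60 against 6.13, 6.14 and 6.44. Il18rap, a chain of the interleukin 18 receptor, rose by 1.24 ± 0.16, Il6ra by 0.70 ± 0.11 and Ifngr1, a chain of the interferon gamma receptor, by 0.60 ± 0.06. The 3 colony stimulating factor receptors tested did not pass, and Csf1r, which receives the CSF1 in the medium, was at -0.12 ± 0.05 (adjusted p 0.104). Among 13 chemoattractant receptors 4 were higher and 1 lower. The chemokine receptor gene Ccr1 was at 0.65 ± 0.09 and C5ar1, the receptor of complement fragment C5a, was at 0.35 ± 0.06. Fpr2, the receptor through which annexin A1 acts, stood at 0.66 ± 0.22 (adjusted p 0.0472) with overlapping arrays, and its call was lost in 14 of 19 alternatives. Cxcr3 was 0.35 ± 0.08 lower.

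Interferon-stimulated genes, whose products block viral replication, were lower than baseline in 8 of 36 tested and higher in 2, with a median of -0.12. Against 4 h, 8 of the 36 were lower and 1 higher, where 1.83% of all tested genes were lower. Ifit1, which binds viral RNA caps, read 6.36, 7.09 and 6.83 at baseline and 5.16, 5.44 and 5.63 at 10 h. Rsad2, or viperin, read 8.78, 9.55 and 9.36 against 7.54, 8.15 and 7.98. Ifit3 read 5.96, 6.86 and 7.01 against 5.21, 5.28 and 5.57, with the lowest baseline array near the highest at 10 h. Replicate 1 was the lowest array in both groups for 27 of the 36 genes, against 10.4% of all tested genes. At 4 h the changes of Ifit1, Rsad2 and Ifit3 from baseline had been -0.16, -0.14 and 0.00, with adjusted p from 0.776 to 1. The remaining lower members were Ifit2 at -1.15 ± 0.22, the immunity GTPase genes Tgtp1 at -0.91 ± 0.26 and Irgm1 at -0.42 ± 0.11, the nucleotide kinase gene Cmpk2 at -0.87 ± 0.22 and Xaf1 at -0.56 ± 0.14. Tgtp1 lost its call without baseline replicate 2 or 10 h replicate 1. The higher members were the GTPase gene Gbp7 at 0.90 ± 0.13 and Ifi204 at 0.74 ± 0.16. Transcription factors of the pathway did not pass, Irf7 being at -0.07 ± 0.18.

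Interferon-stimulated response elements stand close to the start of many of these genes. The letters GAAA repeated after any 2 bases, searched on both strands of the same windows, occurred in 3.46% of all genes in the table, in 3.05% of the tested genes and in 15 of 28 interferon-stimulated genes with a window (53.6%). They were present in 5 of the 8 lower members, Ifit1, Ifit3, Irgm1, Rsad2 and Tgtp1, and also in Gbp7, the higher member with a window. The 3 windows of the lower genes with the largest changes are shown, with every match in capitals on either strand. Their positions are chr19:34640639-34640888 (plus strand) for Ifit1, chr19:34583279-34583528 (plus) for Ifit3 and chr12:26456453-26456702 (minus) for Rsad2.
Ifit1: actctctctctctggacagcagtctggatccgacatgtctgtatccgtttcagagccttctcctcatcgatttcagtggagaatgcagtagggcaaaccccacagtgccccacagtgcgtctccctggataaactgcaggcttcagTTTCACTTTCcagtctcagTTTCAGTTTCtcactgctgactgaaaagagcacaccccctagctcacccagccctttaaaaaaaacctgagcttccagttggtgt
Ifit3: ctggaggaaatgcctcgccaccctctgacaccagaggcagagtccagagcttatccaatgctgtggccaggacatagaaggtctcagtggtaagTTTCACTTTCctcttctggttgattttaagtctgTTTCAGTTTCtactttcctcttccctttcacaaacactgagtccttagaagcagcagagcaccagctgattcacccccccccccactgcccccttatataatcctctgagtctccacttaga
Rsad2: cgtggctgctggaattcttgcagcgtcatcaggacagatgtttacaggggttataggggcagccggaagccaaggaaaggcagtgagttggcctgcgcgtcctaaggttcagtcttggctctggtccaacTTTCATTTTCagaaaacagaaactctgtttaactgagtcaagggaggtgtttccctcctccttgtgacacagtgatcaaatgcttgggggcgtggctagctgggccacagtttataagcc
Ifit1 and Ifit3 held 2 matches each and Rsad2 held 1.

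The circadian clock, a loop in which PER and CRY proteins repress their own activators, differed from baseline in 9 of 20 tested genes, 6 higher and 3 lower. Per1 and Nfil3 were raised early and stayed up. Per1 read 6.34, 6.36 and 6.05 against 8.47, 8.56 and 8.24, and Nfil3, a repressor of clock output genes, rose by 1.33 ± 0.15. Cry1 behaved otherwise. It averaged 7.45 at baseline and 7.42 at 4 h, read 8.73, 8.66 and 8.73 at 10 h and averaged 6.94 at 24 h, so that it passed as higher than baseline at 10 h (1.26 ± 0.08, adjusted p 3.96e-11) and lower at 24 h. Nr1d2, the nuclear receptor REV-ERB beta, which represses the activator genes, was lowest at 10 h: its baseline arrays lay between 9.47 and 9.50, its 10 h arrays were 8.51, 8.56 and 8.40, and it had regained 0.58 by 24 h (adjusted p 4.45e-06), when it was still 0.42 below baseline. Arntl, or BMAL1, the activator repressed by that receptor, was at 0.73 ± 0.11. Per2 rose by 0.92 ± 0.15 from a baseline mean below background and was 1.08 lower again at 24 h (adjusted p 0.00015). Tef, an output factor, went from 0.41 ± 0.08 at 10 h to -0.53 at 24 h against baseline. Bhlhe40 and Npas2 were lower, at -0.35 ± 0.10 and -0.49 ± 0.16, Npas2 with its 10 h mean below background. Clock and Dbp did not pass, at 0.10 and 0.05.

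The E-box CACGTG, the element bound by the activators, lay in the windows of 5 of 17 clock genes (29.4%) against 9.54% of tested genes, and in Cry1, Per1 and Tef among the higher ones. The share was not particular to the clock: it was 6 of 20 receptor targets (30.0%), Per1 being in both lists. Among all genes with a window it was 10.7% of the higher and 14.1% of the lower. The Cry1 window, chr10:85185055-85185304 on the minus strand, and the Per1 window, chr11:69098699-69098948 on the plus strand, are given because these 2 repressor genes had different time courses.
Cry1: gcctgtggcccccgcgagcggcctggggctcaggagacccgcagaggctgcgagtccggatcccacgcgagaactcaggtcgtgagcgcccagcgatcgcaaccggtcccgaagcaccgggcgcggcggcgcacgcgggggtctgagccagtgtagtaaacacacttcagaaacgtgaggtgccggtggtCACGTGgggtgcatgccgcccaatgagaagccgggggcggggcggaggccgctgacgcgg
Per1: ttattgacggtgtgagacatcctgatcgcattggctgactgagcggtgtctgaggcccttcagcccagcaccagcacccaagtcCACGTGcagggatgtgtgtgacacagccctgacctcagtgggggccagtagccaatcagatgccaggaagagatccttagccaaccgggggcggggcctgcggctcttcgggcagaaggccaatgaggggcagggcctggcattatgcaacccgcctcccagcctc
Each held 1 match, shown in capitals.

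**Figure D3:**
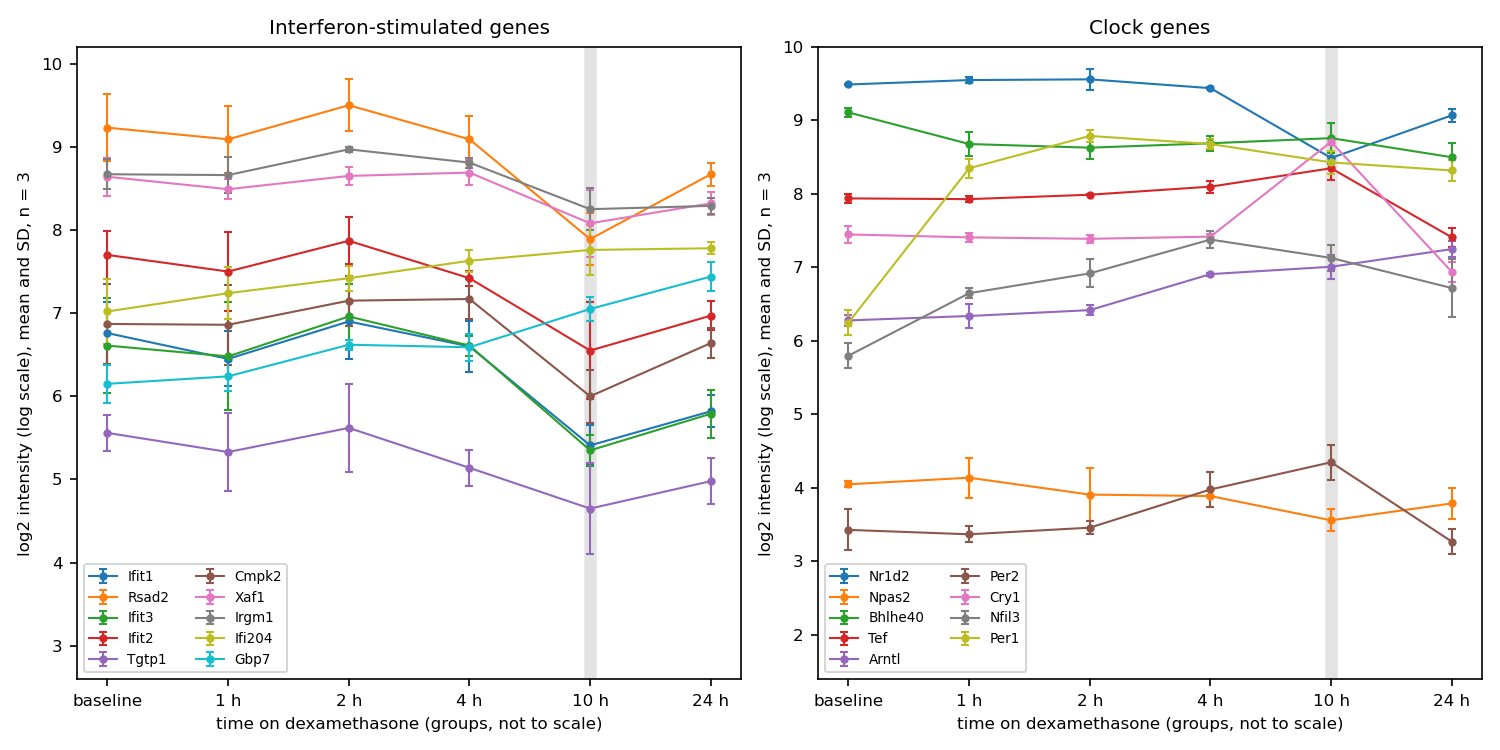
Mean log2 intensity with SD (n = 3 arrays per group) at baseline and at 5 times of dexamethasone, for the interferon-stimulated genes (left) and clock genes (right) that passed at 10 h; the grey bar marks 10 h and the groups are spaced evenly, not to scale. Rsad2, Ifit1 and Ifit3 stay near baseline up to 4 h and are lower at 10 h, by 1.34, 1.35 and 1.25, while Cry1 is highest at 10 h, at 1.26 above baseline, and Nr1d2 is lowest there.

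Genes for the uptake of dying cells and scavenger receptor genes, listed together, were called in both directions, 11 of 28 higher and 4 lower (7 and 9 with centred arrays). Of the 4 scavenger receptors 3 were higher and 0 lower. Mertk, the receptor kinase that recognises apoptotic cells through GAS6 and protein S, read 7.35, 7.76 and 7.31 at baseline and 9.61, 9.59 and 9.60 at 10 h, a 4.36-fold difference. Cd163, the receptor for haptoglobin bound to haemoglobin, read 4.17, 4.39 and 4.11 against 6.35, 6.22 and 6.36. The scavenger receptor gene Marco and the lipid receptor gene Cd300lf rose by 0.80 ± 0.12 and 0.74 ± 0.07. Of the opposite sign were Itgb3, the beta chain of the vitronectin receptor, at -0.95 ± 0.21 and Tgm2 at -0.84 ± 0.10, both of which help bring apoptotic cells to the membrane. Itgb3 lost its call with the mean of all its probe sets.

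Complement genes were higher in 6 of 16 and lower in 0 (5 and 1 with centred arrays). The 3 chains of C1q, which tags dying cells and immune complexes, were all higher: C1qa read 9.38, 9.59 and 9.35 against 10.21, 10.19 and 10.06, C1qb was at 0.39 ± 0.05 and C1qc at 0.25 ± 0.06, a call lost without baseline replicate 3. Cd55, which takes apart complement convertases, rose by 1.06 ± 0.26 from a baseline mean below background, with 10 h arrays of 4.00, 4.86 and 5.18, and its call was lost without 10 h replicate 3. In coagulation and fibrinolysis 5 of 16 were higher and 2 lower. The factors F7 and F10 were at 0.67 ± 0.10 and 0.61 ± 0.16. Thbd, thrombomodulin, which turns thrombin against clotting, went from 6.24, 5.67 and 5.77 to 6.92, 7.43 and 7.37, below its level at 4 h by 0.69 (adjusted p 0.00176). Procr, the receptor of protein C in the same anticoagulant pathway, fell by 0.60 ± 0.10, and Plau, on the side of clot lysis, fell by 1.69 ± 0.13.

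Haem and iron genes gave 4 higher and 7 lower of 26. Of 12 genes of haemoglobin capture and haem turnover 3 were higher and 2 lower. The higher ones were Hp, Cd163 and Hmox1, haem oxygenase, which read 10.41, 10.59 and 10.24 against 11.08, 11.26 and 11.03. None of 9 iron transport genes was higher and 3 were lower, among them Slc40a1, the exporter ferroportin, at -0.62 ± 0.14. Ferroportin had been 1.39 below baseline at 4 h and had risen by 0.76 since (adjusted p 0.00133). Cp, the ferroxidase ceruloplasmin, was at -0.71 ± 0.22 with a 10 h mean below background.

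Of 4 acute phase genes 3 were higher, Hp, Saa3 and Lcn2, and Cp was lower. The whole list of 22 acute phase and antimicrobial genes gave 5 higher and 4 lower (5 and 5 with centred arrays). Saa3, serum amyloid A3, read 7.52, 7.35 and 7.27 against 8.92, 8.69 and 8.80, having been 0.13 above baseline at 4 h without passing. Lcn2, which binds bacterial siderophores, had overlapping arrays and an adjusted p of 0.039 that was lost in 10 of 19 alternatives. The antimicrobial granule genes Ltf and Camp were lower, Ltf at -0.95 ± 0.22 and Camp at -0.51 ± 0.16, Camp with a 10 h mean below background, and so was S100a9 at -0.74 ± 0.20. The calls of Camp and S100a9 were each lost in 4 of 19 alternatives, without baseline replicate 1 among them, and that of Cp in 5. Ltf and Camp also serve as neutrophil markers, whose sum is given above, and the part of neutrophil RNA in these falls was not tested. Chil3, the chitinase-like protein Ym1, rose by 1.22 ± 0.17.

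Surface receptors for sugars and antibodies gave 5 higher and 3 lower of 22 (4 and 5 with centred arrays). Clec10a, a galactose lectin, read 5.82, 6.23 and 5.57 against 7.19, 7.18 and 7.44, and Mrc1, the mannose receptor, 11.47, 11.71 and 11.58 against 11.93, 12.12 and 12.18. Fcgrt, the neonatal Fc receptor, was at 0.81 ± 0.11 and Fcgr3 at 0.34 ± 0.04. Clec7a fell from 8.53, 8.37 and 8.56 to 6.89, 6.91 and 6.80, and Clec2i, a ligand of NK cell receptors, fell by 1.03 ± 0.13. Lectin genes therefore stood on both sides of baseline by more than 1 log2 unit.

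MS4A genes, which encode small proteins with 4 membrane spans clustered on chromosome 19, had the largest share of calls, 5 of 9 higher and 1 lower, with a median of 1.09. Ms4a6b read 9.35, 9.91 and 9.50 against 11.45, 11.88 and 11.81, and Ms4a6c rose by 1.87 ± 0.11. Ms4a6d and Ms4a4c were 2.13-fold and 2.19-fold higher. Members of this family are close copies of each other and probes can cross-hybridise, so the rises are not independent measurements. Ms4a7, at -0.14 ± 0.04, had another probe set of opposite sign at 0.29 and lost its call in 6 of 19 alternatives.

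At 13.6% called, near the 14.4% of all tested genes, antigen presentation gave 0 higher and 3 lower of 22. These were Cd274, the inhibitory ligand PD-L1, from 7.79, 7.85 and 7.67 to 7.09, 7.10 and 6.82, the maturation marker Cd83 at -0.71 ± 0.20, and H2-Aa, a class II chain, at -0.58 ± 0.17, which fell by a further 0.77 by 24 h (adjusted p 0.0127). H2-Aa lost its call in 6 of 19 alternatives and Cd83 in 4, both without baseline replicate 2 or 10 h replicate 3 among them. The list of arginine, itaconate and tryptophan enzymes, which also holds 4 tested marker genes, gave 2 higher and 4 lower of 16. The marker genes gave 2 higher and 1 lower, so none of the enzymes was higher. Beside Acod1, the spermidine synthase gene Srm fell by 0.50 ± 0.08. Nos2 lay below background in both groups.

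**Figure D4:**
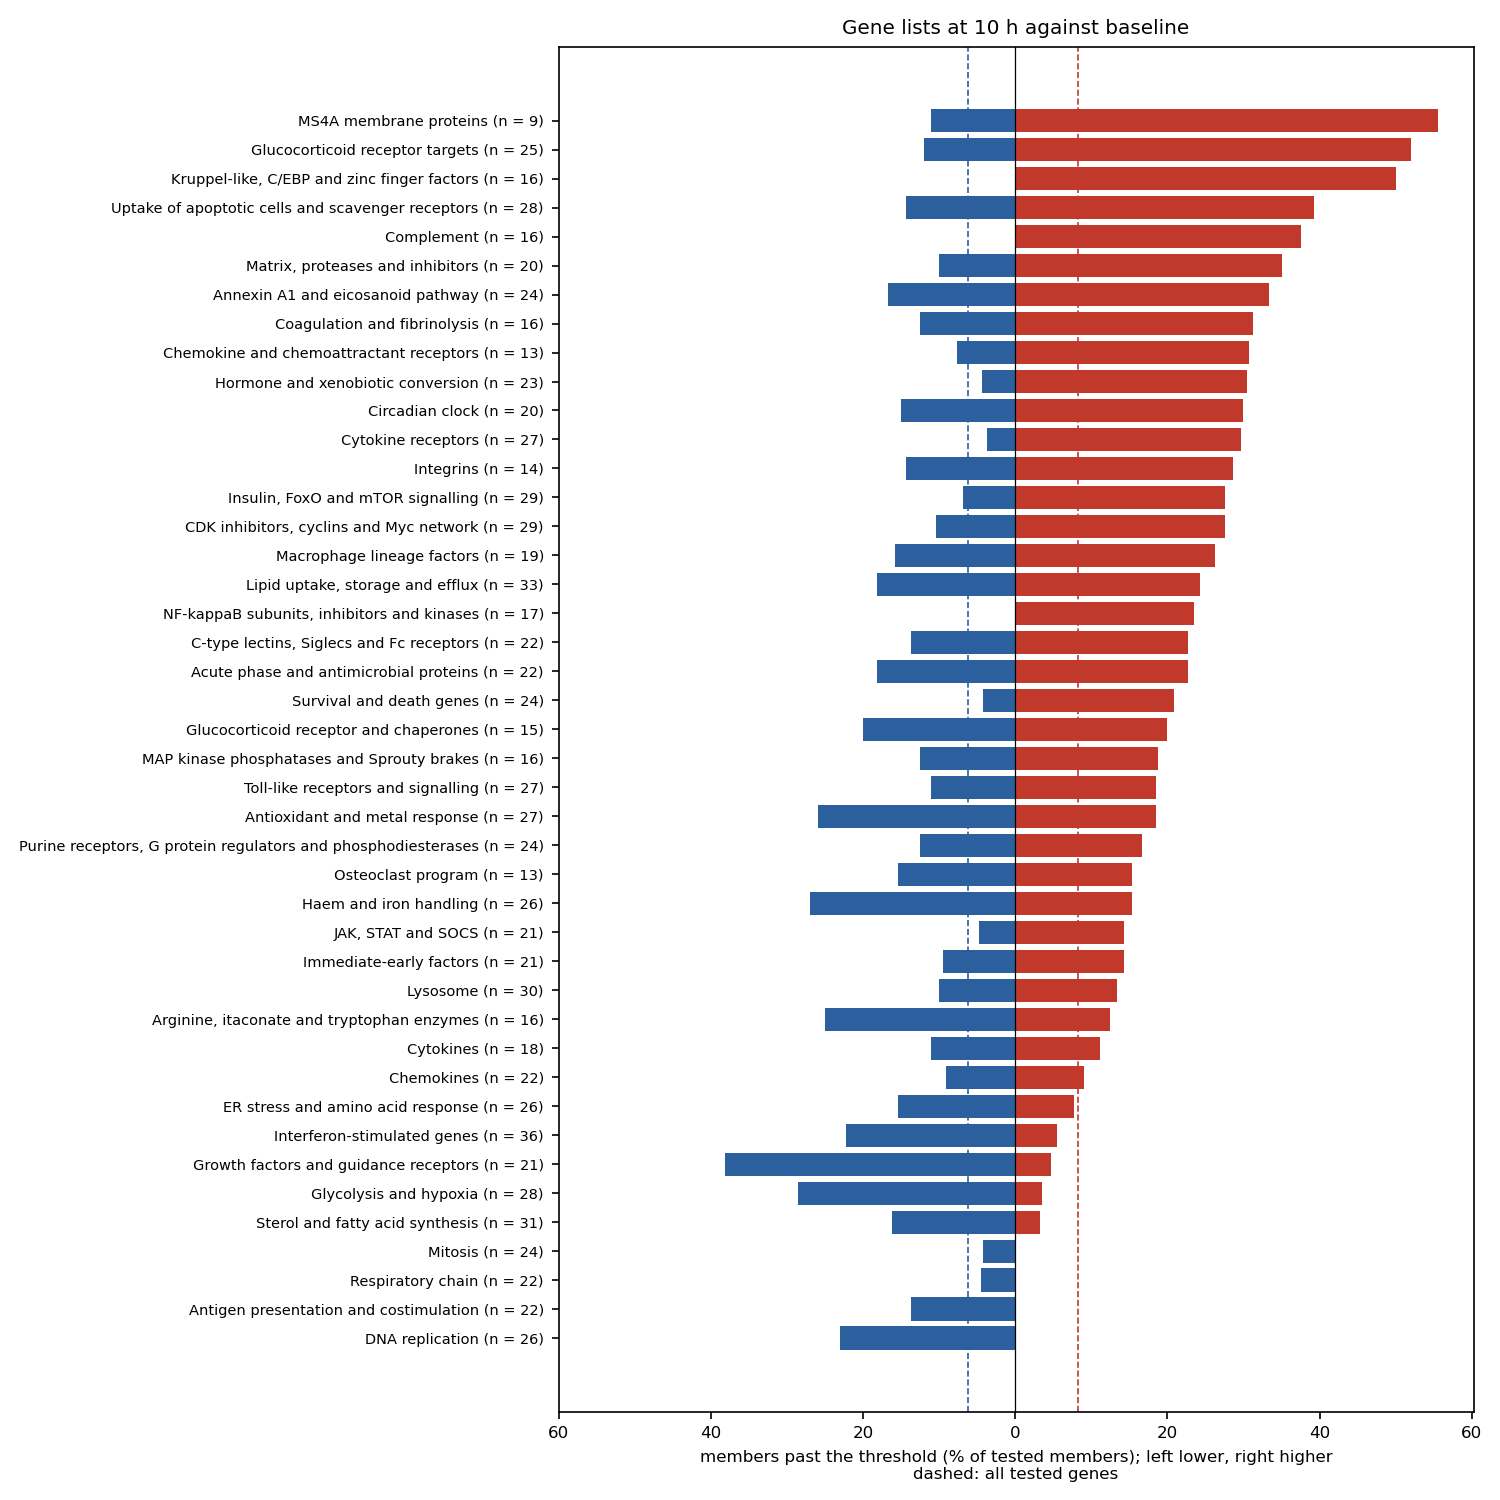
Share of tested members of each gene list that passed at 10 h, in percent, lower to the left in blue and higher to the right in red; n is the number of members tested and dashed lines mark the shares over all tested genes, 6.16% and 8.29%. MS4A and receptor target genes have the largest share of higher calls, and growth factors and glycolysis the largest shares of lower calls; with arrays centred on their median the larger side of several lists turns, as given with their counts in the text.

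Lipid mediators and lipids moved in both directions. In the eicosanoid pathway 8 of 24 were higher and 4 lower (4 and 7 with centred arrays). Ptger2, the prostaglandin E2 receptor coupled to cyclic AMP, read 7.27, 7.42 and 6.79 against 8.50, 8.43 and 8.18, whereas Cysltr1, a leukotriene receptor, read 8.14, 8.34 and 7.88 against 7.32, 7.28 and 7.28. Pla2g7, which destroys platelet activating factor, rose by 0.81 ± 0.12 and by a further 1.12 by 24 h (adjusted p 4.45e-06). Of 33 lipid handling genes 8 were higher and 6 lower (5 and 8 with centred arrays). Apoc2, the cofactor of lipoprotein lipase, stood at 1.15 ± 0.11 and the fatty acid carrier Fabp4 at 1.02 ± 0.07. The related carrier Fabp3 fell by 0.59 ± 0.10 and Lipa, the acid lipase of lysosomes, from 12.33, 12.37 and 12.14 to 11.84, 11.64 and 11.42.

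Sterol and fatty acid synthesis had the lowest median of all lists, -0.41, although 5 of 31 members passed as lower and 1 as higher. With centred arrays 13 were lower. Replicate 2 was the lowest array in both groups for 26 of the 31 genes. With the replicate number as a block in the model more of the 31 passed as lower, as given with the processing alternatives below. Hsd17b7, a late enzyme of cholesterol synthesis, read 8.85, 8.40 and 8.74 against 8.08, 7.54 and 7.79. Fdps and Sc5d were at -0.60 ± 0.19 and -0.61 ± 0.18, with calls lost in 8 of 19 alternatives each, while Sqle at -0.37 and Idi1 at -0.47 did not pass (adjusted p 0.0906 and 0.0969). The higher member was Elovl5, which lengthens polyunsaturated fatty acids, at 0.67 ± 0.08. Hormone and xenobiotic conversion gave 7 higher and 1 lower of 23 (2 and 4 with centred arrays), with Sult1a1 and Dio2 at the ends and Cbr2, a carbonyl reductase, at 1.08 ± 0.15.

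Of 28 glycolysis and hypoxia genes 8 were lower and 1 higher (13 and 1 with centred arrays). Vegfa, the angiogenic growth factor, read 5.52, 5.50 and 5.76 against 4.54, 4.90 and 4.67, and the glycolytic enzyme gene Tpi1 fell by 0.26 ± 0.04. Slc2a1, the glucose transporter GLUT1, was at -0.36 ± 0.10 and lost its call without baseline replicate 2 or 10 h replicate 1. Ndrg1, a hypoxia-responsive gene, rose by 0.54 ± 0.08. In the respiratory chain 1 of 22 passed, Cycs, or cytochrome c, at -0.31 ± 0.05, a share below that of all genes. The call of Cycs was lost with the probe set of largest variance. Antioxidant and metal genes gave 5 higher and 7 lower of 27. Gpx3, a secreted glutathione peroxidase, read 5.56, 5.48 and 5.10 against 6.58, 6.27 and 6.45, whereas the NRF2 targets Srxn1 and Txnrd1 fell by 0.68 ± 0.08 and fell by 0.53 ± 0.05. The zinc importer gene Slc39a10 fell by 0.93 ± 0.07. Another probe set of Srxn1 was at 0.11.

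Growth factors and their receptors were lower in 8 of 21 and higher in 1. Igf1, insulin-like growth factor, read 11.84, 11.90 and 11.85 against 11.29, 11.26 and 11.08. The VEGF receptor gene Kdr fell by 0.98 ± 0.17 and Vegfb by 0.51 ± 0.10, and Met, the receptor of hepatocyte growth factor, stood at 0.75 ± 0.17. Kdr and Kit are also markers of endothelium and of mast cells. Of the 5 endothelial markers, Kdr and Vwf lay above background, Vwf at 8.39 and 8.56 in the group means, and the list summed to 388 to 416 at baseline and 384 to 465 at 10 h. Of the 5 markers of mast cells and basophils Kit alone lay above background. The part of such cells in these falls was not tested. In insulin, FoxO and mTOR signalling 8 of 29 were higher and 2 lower (8 and 5 with centred arrays). Beside Ddit4, another brake of mTOR rose: Deptor read 6.87, 6.73 and 7.14 against 8.23, 8.17 and 8.46. Insr, the insulin receptor, was at 0.82 ± 0.11 and Igf1r at 0.58 ± 0.15, a call lost without baseline replicate 3, while Igf1, the ligand gene of Igf1r, was lower.

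DNA replication gave 6 lower and 0 higher of 26 (14 and 0 with centred arrays), with a median of -0.12. Mcm2, a subunit of the replicative helicase, fell by 0.41 ± 0.07, Rfc3 by 0.38 ± 0.09 and Pcna, the sliding clamp, by 0.17 ± 0.04, the last with baseline arrays of 12.75, 12.75 and 12.72 and 10 h arrays of 12.59, 12.56 and 12.56. Of 24 mitosis genes 1 was lower, Cenpa at -0.21 ± 0.07, whose call was lost in 10 of 19 alternatives and whose other probe set was at 0.30; Mki67 was at 0.04 and Cdk1 at 0.10. Among 29 CDK inhibitors, cyclins and Myc network genes 8 were higher and 3 lower (4 and 8 with centred arrays). The MYC antagonists Mxd4 and Mxi1 were at 1.21 ± 0.09 and 0.55 ± 0.11, and Mxd4 was also higher at 10 h than at 4 h and 24 h. Cdkn1b, the inhibitor p27, rose by 0.61 ± 0.09, against the fall of Cdkn1c. Survival genes gave 5 higher and 1 lower of 24: Birc3, an inhibitor of apoptosis, read 9.04, 9.16 and 8.92 against 9.97, 9.83 and 9.78, Birc2 was at 0.62 ± 0.11, the pro-death Bmf at 0.83 ± 0.15, Bcl2l1 at 0.51 ± 0.07 and Bcl2 at -0.61 ± 0.09.

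Matrix and adhesion genes gave 7 higher and 2 lower of 20 for matrix proteins and proteases (4 and 5 with centred arrays) and 4 higher and 2 lower of 14 for integrins (2 and 3 with centred arrays). Mmp19 rose by 1.32 ± 0.15, whereas Mmp13, a collagenase, fell by 0.91 ± 0.14 and Mmp12, macrophage elastase, from 11.85, 11.58 and 11.62 to 11.16, 11.12 and 10.77. Tgfbi, a secreted adhesion protein, read 11.27, 11.22 and 11.33 against 12.21, 12.22 and 12.34. Itgam, the alpha chain of complement receptor 3, was at 0.39 ± 0.08. Osteoclast genes, 13 tested, gave 2 higher and 2 lower (0 and 5 with centred arrays), and the receptor gene Tnfrsf11a, or RANK, at 0.50 ± 0.16, lost its call in 10 of 19 alternatives.

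Of 26 genes of ER stress and the amino acid response 2 were higher and 4 lower (1 and 14 with centred arrays), with Herpud1 at 0.50 ± 0.09 and Atf4 at -0.27 ± 0.06. Of 30 lysosome genes 4 were higher and 3 lower (2 and 8 with centred arrays), with Npc1, which exports cholesterol, at 0.55 ± 0.06. Purinergic genes, 24 with G protein regulators and phosphodiesterases, gave 4 higher and 3 lower (3 and 5 with centred arrays). P2ry12, the ADP receptor of microglia and platelets, read 5.24, 5.47 and 4.52 against 6.63, 6.72 and 6.20, and Ada, adenosine deaminase, 6.09, 5.79 and 5.70 against 6.89, 6.83 and 7.15. P2ry1, another ADP receptor, fell by 0.67 ± 0.17, a call lost without baseline replicate 3 or 10 h replicate 2.

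Direct comparison with 4 h, which does not use the baseline arrays, called 551 genes (4.18%), 310 higher (2.35%) and 241 lower (1.83%) at 10 h. Of the 1093 genes higher than baseline, 798 passed neither against 4 h nor against 24 h, 161 were higher than at 4 h alone and 20 were higher than at 4 h and higher still at 24 h. The corresponding counts of the 812 lower genes were 596, 136 and 12. F13a1 rose by 1.91 from 4 h to 10 h, Sult1a1 by 1.81 and Hp by 1.75. Il1rn illustrates a late fall: it was at -0.10 at 4 h against baseline and lost 1.41 by 10 h (adjusted p 5.02e-06). B3gnt5, a glycosyltransferase gene, lost 1.34 in the same step after an early rise, with a call against baseline that was lost in 9 of 19 alternatives, and Fat3 lost 1.29. Without 4 h replicate 1 the count of calls was 316, and without 4 h replicate 2 it was 334.

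The step from 10 h to 24 h called 285 genes (2.16%), 131 higher (0.993%) and 154 lower (1.17%). Several genes already higher at 10 h went on rising, F13a1 by 2.41, Saa3 by 1.86, Cbr2 by 1.54, Cd55 by 1.46, Fpr2 by 1.42 and Marco by 1.21. Of those already lower, Mmp12 fell by 1.72, Cdkn1c by 1.49 and the serpin gene Serpinb9b by 1.27. Without 24 h replicate 1 the count was 145. Sult1a1, Ddit4 and Lifr differed between 10 h and 24 h by -0.04, -0.36 and 0.04, none of which passed.

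A small set stood out at 10 h against the times on either side. Genes higher at 10 h than at baseline, 4 h and 24 h numbered 25 (0.19% of those tested), and genes lower than all of these numbered 16 (0.121%). Cry1 led the first set. Strip2, a subunit of a phosphatase complex, read 3.10, 2.85 and 3.06 at baseline, below background, and 4.91, 5.03 and 5.41 at 10 h, and was 0.93 lower at 24 h (adjusted p 0.000285). Glrx, glutaredoxin, was higher by 0.86 ± 0.06 than baseline, by 0.49 than 4 h and by 0.49 than 24 h. The zinc transporter gene Slc39a12, the sodium-calcium exchanger gene Slc24a3, Tcp11l2 and Pstpip2 were the others of the 8 largest, beside Mxd4. Nr1d2 led the troughs. Slc15a3, a lysosomal transporter of histidine and peptides, read 9.91, 9.81 and 9.85 at baseline and 8.82, 8.82 and 8.56 at 10 h and had regained 0.38 at 24 h (adjusted p 0.00784). Tgm2, Rsad2, Pkp4, Utp20, Tmem273 and the ER chaperone gene Hyou1 completed the 8. Hyou1 fell by 0.26 ± 0.07, with a call lost in 4 of 19 alternatives, without 10 h replicate 1 among them. The number of troughs was 6 without 10 h replicate 3, 24 h replicate 1 or 24 h replicate 2, and 10 without 4 h replicate 1 or 3.

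**Figure D5:**
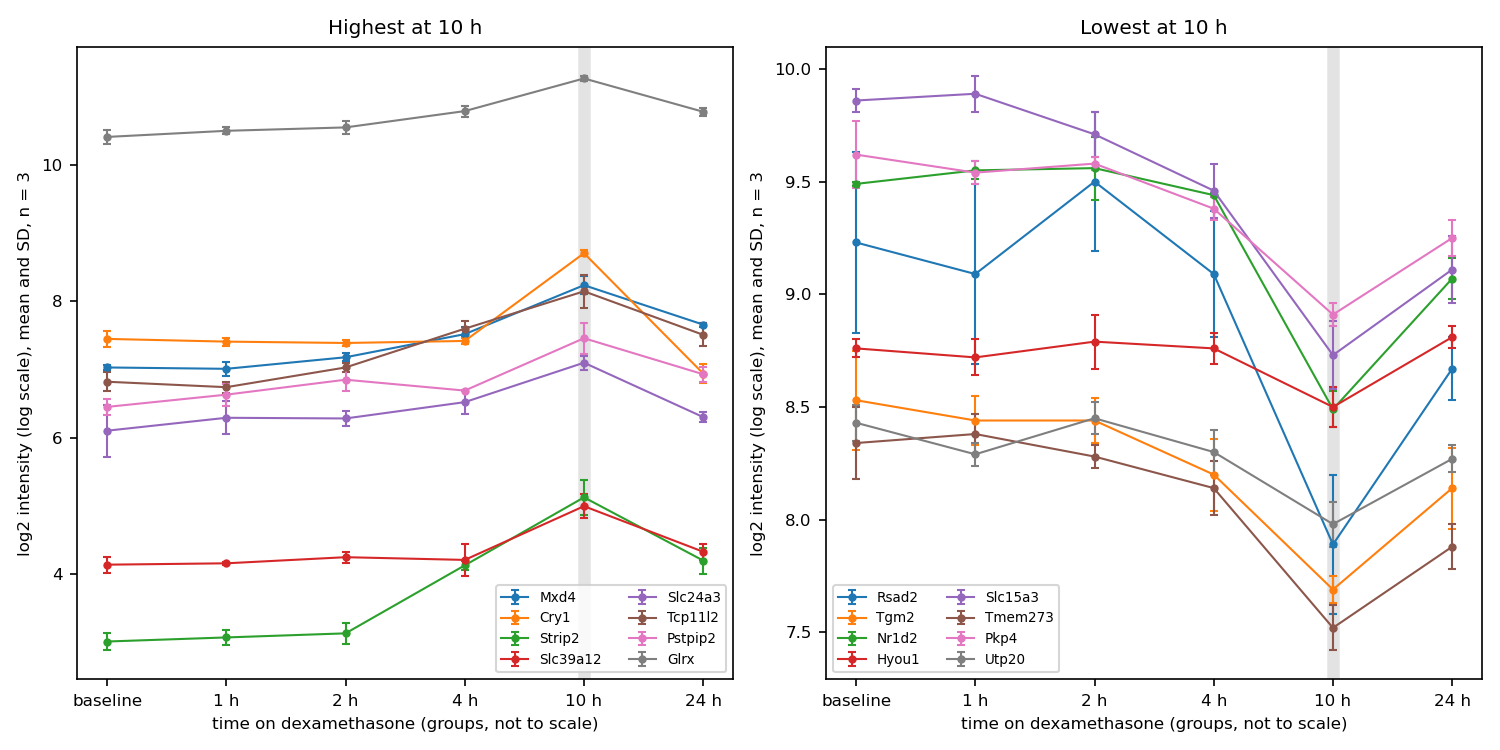
Mean log2 intensity with SD (n = 3 arrays per group) over the time course for the 8 genes with the largest maximum at 10 h (left) and the 8 with the largest minimum at 10 h (right); the grey bar marks 10 h and times are spaced evenly, not to scale. The genes were chosen for this shape; Cry1 falls by 1.77 after 10 h, and Nr1d2 regains 0.58.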

How the data were processed

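RNA of 18 samples was hybridised to Affymetrix HT MG-430 PM arrays, 6 groups of 3. The deposited values are linear RMA intensity, computed with affy per the submitters' processing notes, and range from 5.37 to 15224; versions and background settings are not given in the sources used here. RMA forces arrays to a common distribution and compresses the changes of dim genes. In baseline replicate 1 a run of 211 probe sets falls in even steps of -0.000106 log2, so these probe sets were left out. Of 45141 probe sets, 28898 have 1 gene symbol in the platform annotation, 551 several and 15588 none. The brightest probe set stood for each of 17097 genes, and 13190 were tested, those reaching an array's 40th percentile on at least 3 arrays.

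Intensities were converted to log2 and fitted with limma 3.58.1 in R 4.3.3, with 1 mean per group over all 18 arrays and eBayes with an intensity trend. Tests were two-sided, and Benjamini-Hochberg adjustment ran over all tested genes with a threshold of 0.05. The scripts were tested on simulated data. The labels call the replicates biological but do not tie them to animals, so p-values measure the spread between these samples, which may be partly technical. Microarrays give no count depth; the number of arrays limits the precision.

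Gene lists and the comparison were chosen with earlier results of these data known. Genes were named by rule: the 12 largest rises and falls that passed without overlap, up to 6 members per list that passed, 5 receptor checks (Dusp1, Fkbp5, Nr3c1, Per1 and Tsc22d3), the 8 largest maxima and minima at 10 h, and the 6 largest steps each way from 4 h and to 24 h. Named outside it, after their values were seen, were Cmpk2, Xaf1, Irgm1, Ifi204, Npas2, Bhlhe40, Tef, the genes with opposite calls Lcp2, Kitl, Frmd4a, Mthfd1l and Ephx1, cell type markers, and members given as not having passed. Alternatives covered the replicate block, the arrays fitted, the variance model, probe set choice, filters, the stepped run, centring, the log offset, the fold threshold and each array left out.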

Additional observations from a re-analysis of the deposited data

Results flagged for a closer look

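The change from baseline at 10 h differed from that at 4 h in 551 genes and from that at 24 h in 285, by limma's test of the difference with Benjamini-Hochberg adjustment. In 10 genes the changes from baseline passed in opposite directions at the times compared, and each difference was itself tested.

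Against 4 h there were 5 such genes. Nfkbiz went from -0.51 at 4 h to 0.59 at 10 h, a difference of 1.10 ± 0.16 (adjusted p 6.37e-05), and Tlr2 from -0.46 to 0.42, a difference of 0.88 ± 0.08. Lcp2, an adaptor of immune receptor signalling, went from -0.43 to 0.29 (difference 0.71). Kitl, the ligand of Kit, went from 0.25 to -0.34 (difference -0.59), and Frmd4a from 0.25 to -0.28 (difference -0.53).

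Against 24 h the other 5 were all higher at 10 h and lower at 24 h. Cry1 differed by -1.77 ± 0.08 (adjusted p 1.16e-12) and Tef by -0.94 ± 0.08. Fgf13 went from 0.56 to -0.88, a difference of -1.44. Ephx1, an epoxide hydrolase gene, differed by -0.69 and Mthfd1l, an enzyme of mitochondrial folate metabolism, by -0.61.

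Probe sets outside the gene comparison also carried calls. In a fit over all probe sets, 664 of 9485 without a gene symbol passed at 10 h (7%), 348 higher and 316 lower, with a largest rise of 3.50. Of 452 probe sets with several symbols, 48 passed (10.6%).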

How the results depend on the processing

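The count of 1905 genes at 10 h against baseline fell to 1257 when only the arrays compared were fitted, with 513 lower, and centring arrays on their median gave 576 higher and 2050 lower. Requiring 1 log2 unit as well left 126 genes, 104 higher and 22 lower. For 10 h against 4 h (551, 310 higher and 241 lower) the counts in that order were 344, 188 and 156 with only the groups compared, 321, 176 and 145 without the intensity trend, and 25, 15 and 10 at 1 log2 unit. The probe set of largest variance gave 359 with 190 higher, and centring gave 169 higher. For 24 h against 10 h (285, 131 and 154) they were 176, 77 and 99 with only the groups compared, 124, 49 and 75 without the trend, 172, 78 and 94 with the probe set of largest variance, and 19, 10 and 9 at 1 log2 unit; centring gave 80 higher. The 25 maxima at 10 h became 11 without the trend, 11 with centring and 1 at 1 log2 unit. The 16 minima became 4 with only the groups compared, 3 without the trend, 7 with the probe set of largest variance, 7 with centring and 0 at 1 log2 unit. A stricter threshold lowers counts by construction, and the cause of the other shifts was not tested. Leaving out 1 array at a time gave 1463 to 1700 genes against baseline (796 to 1030 higher, 642 to 704 lower), 316 to 518 against 4 h (169 to 292 higher, 143 to 226 lower), 145 to 258 for 24 h against 10 h (57 to 111 higher, 88 to 147 lower), 17 to 30 maxima and 6 to 21 minima.

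The replicate numbers were not taken to pair the samples, because not every same-numbered pair correlated above 0.1 in its deviations from the group means. For replicates 1, 2 and 3 these correlations were 0.03, 0.03 and 0.16 between 10 h and baseline, 0.02, 0.18 and 0.16 between 10 h and 4 h, and 0.08, 0.15 and 0.15 between 24 h and 10 h; arrays of other numbers reached at most 0.08, so a weak sharing by number is not excluded. As a block in the model, the replicate number gave 2446 genes against baseline, 945 against 4 h (509 higher, 436 lower), 547 for 24 h against 10 h (283 and 264), 49 maxima and 53 minima. With it 23 sterol and fatty acid genes, against 5, and 11 genes of ER stress, against 4, were lower at 10 h.

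Of 235 named genes, 230 passed and 148 of these kept their call in all alternatives other than the fold threshold. With the probe set of largest variance Ms4a7 turned to 0.29, Gch1 to 0.01, Cenpa to 0.30, Nfatc1 to -0.32, Itgav to 0.13 and Mcoln1 to 0.46. Cycs, Cdkn1b, Bcl2, Il6ra, Fabp4 and Klf6 lost their calls with the probe set of largest variance. With the mean of probe sets Ms4a7 was 0.07, Cenpa 0.05 and Mcoln1 0.03, and Insr, Met, Bmf and Atf4 lost their calls. Among genes that had not passed, Prf1 was -0.09 and Cd79b -0.06 with centring, and leaving out 1 array gave -0.13 to 0.18 for Prf1, -0.03 to 0.15 for Cd79b and -0.24 to 0.01 for Klf1. Levels under the background of 3.86 leave the size of a change uncertain.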

Other observations

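In 2 lists, the only ones counted for this, the arrays of a replicate number mostly stood at the same end in both groups. For 27 of the 36 interferon-stimulated genes tested (75.0%), replicate 1 was the lowest array both at baseline and at 10 h, against 10.4% of all tested genes. For 26 of the 31 sterol and fatty acid synthesis genes (83.9%), replicate 2 was the lowest in both groups, against 9.02% of all tested genes. This was seen in the values and then counted, and it was not tested.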
